A study of Rattus norvegicus with 9 samples.

Results

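Limb and body wall transcription factors were examined as 9 genes, Tbx15, Tbx4, Pitx1, Shox2, En1, Irx3, Irx5, Meox2 and Prrx2, taken by symbol for their known roles in limb, body wall and subcutaneous identity, with earlier results of these data known. All 9 were among the 35362 genes of the count table, and all 9 were among the 14770 genes that passed the filter on low counts. Adipose-derived mesenchymal stem cells came from 6-week-old male Sprague Dawley rats, and 3 samples were available for each of 3 fat depots: subcutaneous fat of the groin (SASCs), perirenal fat (PASCs) and epididymal fat (EASCs). All were cultured cells at passage 3, grown in high-glucose medium with fetal bovine serum, without any treatment or genetic change. The methods describe 6 wells per group, of which the table holds 3, and do not say whether these came from separate rats, so the p-values measure the spread between these samples only, which may be technical.

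These genes encode DNA-binding proteins that, in the embryo, give mesenchymal cells their position along the limb and trunk. Tbx15 and Tbx4 belong to the T-box family, and Pitx1, Shox2, En1, Irx3, Irx5, Meox2 and Prrx2 carry a homeodomain. Pitx1 acts upstream of Tbx4 in the hindlimb, Shox2 shapes the proximal limb skeleton, En1 marks the ventral limb, and adult fat and skin cells are known to retain part of such positional expression. Tbx15 and Shox2 are known for higher expression in subcutaneous than in visceral fat.

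The promoters of the T-box genes, of En1 and of Meox2 are shown first. Tbx15, Tbx4 and En1 were lower in both visceral depots, while Meox2 was higher in PASCs. Irx3 was also lower in both, but its promoter and that of Prrx2, which held no motif match, are not shown. RefSeq (build GRCr8) held a promoter of 300 bases for 6 of the 9 genes. The sequences are written 5′ to 3′ on the strand of the gene, from 250 bases before to 50 bases after the start, and capitals mark matches on either strand to the CCAAT box, to the bicoid-type core TAATCC that Pitx proteins bind, or to the TATA box, searched as TATAAA. They lie at chr2:189265123-189265422 (Tbx15), chr10:71228306-71228605 (Tbx4), chr13:34303434-34303733 (En1) and chr6:59583775-59584074 (Meox2), all on the plus strand.
Tbx15: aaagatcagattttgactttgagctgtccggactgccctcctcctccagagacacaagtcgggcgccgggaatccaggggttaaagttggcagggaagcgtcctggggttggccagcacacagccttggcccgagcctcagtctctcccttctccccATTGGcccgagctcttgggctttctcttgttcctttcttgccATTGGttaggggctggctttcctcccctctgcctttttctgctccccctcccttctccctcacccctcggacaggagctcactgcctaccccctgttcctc
Tbx4: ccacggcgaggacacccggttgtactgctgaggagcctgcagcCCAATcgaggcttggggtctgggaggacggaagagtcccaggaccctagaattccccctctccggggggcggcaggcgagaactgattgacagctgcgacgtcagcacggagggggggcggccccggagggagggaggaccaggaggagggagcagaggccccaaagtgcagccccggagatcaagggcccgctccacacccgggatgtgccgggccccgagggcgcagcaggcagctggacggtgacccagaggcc
En1: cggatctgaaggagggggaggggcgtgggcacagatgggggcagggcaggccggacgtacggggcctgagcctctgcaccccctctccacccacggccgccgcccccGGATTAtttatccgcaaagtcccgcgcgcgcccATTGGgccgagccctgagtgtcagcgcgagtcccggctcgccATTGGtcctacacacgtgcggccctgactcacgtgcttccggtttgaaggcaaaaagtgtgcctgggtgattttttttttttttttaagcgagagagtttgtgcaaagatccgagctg
Meox2: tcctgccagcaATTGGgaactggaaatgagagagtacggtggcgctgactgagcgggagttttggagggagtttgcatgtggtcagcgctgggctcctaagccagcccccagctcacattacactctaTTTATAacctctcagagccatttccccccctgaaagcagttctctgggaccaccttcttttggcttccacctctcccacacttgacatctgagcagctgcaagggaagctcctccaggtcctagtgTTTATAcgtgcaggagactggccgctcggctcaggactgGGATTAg
Of 33469 RefSeq rat promoters of this length, 37.5% held CCAAT on either strand, 14.2% TATAAA, 7.17% TAATCC, 5.36% the homeodomain core TAATTA and 1.1% the T-box core AGGTGTGA. CCAAT was in the promoters of Tbx15, Tbx4, En1 and Meox2, TAATCC in those of En1 and Meox2, and TATAAA in that of Meox2. Neither TAATTA nor AGGTGTGA was found in any of the 6 windows, and those of Irx3 and Prrx2 held no match to the 5 motifs searched. The En1 window had 25 CpG dinucleotides, that of Prrx2 had 30 and that of Tbx4 had 20, against a median of 7 over all promoters. Meox2, with 7 CpG dinucleotides, was at that median. A match is a run of letters only, and binding was not measured.

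Each library held 17591916 to 30299032 counts, so that 3 counts corresponded to 0.104 to 0.159 CPM, the unit of level used here, in which counts are scaled to the TMM-adjusted library size. The share of counts on rRNA genes was 10.4 to 15.5% for SASCs, 22.4 to 32.9% for PASCs and 15.9 to 40.3% for EASCs. With the rRNA genes removed, 7, 7 and 5 of the 9 genes were called in the 3 comparisons, as with them, and Tbx15 stayed at a log2 fold change of -3.70 for EASCs against SASCs. All 9 stromal markers (Thy1, Cd44, Nt5e, Eng, Itgb1, Pdgfra, Pdgfrb, Col1a1 and Lum) were detected in each group, and their sum was 17683 to 18581 CPM for SASCs, 20996 to 25505 CPM for PASCs and 24479 to 27011 CPM for EASCs. Most of each sum was Col1a1, at 10697.5, 19133.5 and 20332.1 CPM in SASCs, PASCs and EASCs. Single markers moved in both directions. Lum was at 3234, 93.1 and 74.1 CPM and Pdgfra at 1543, 278 and 235 CPM in SASCs, PASCs and EASCs, whereas Itgb1 was at 1046, 1814 and 2951 CPM and Eng at 59.97, 89.8 and 204 CPM. Their part in the results was not tested. In such bulk samples, fewer cells of a type and less RNA per cell cannot be told apart.

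Most of the 9 genes had the highest expression in SASCs. A gene was called differentially expressed (DEG) when its fold change exceeded 2 with an adjusted p-value under 0.05 in edgeR's quasi-likelihood test over all 14770 genes. Between EASCs and SASCs, 7 of the 9 genes were downregulated and 0 upregulated, while among all genes tested 14.2% fell and 13.6% rose. In PASCs against SASCs, 6 were downregulated and 1, Meox2, was upregulated, whereas 14.9% of all genes fell and 12.0% rose. Between EASCs and PASCs, 5 were downregulated and 0 upregulated, where 2.20% of all genes fell and 5.19% rose. The median log2 fold change of the 9 genes was -3.70 for EASCs against SASCs and -1.91 for PASCs against SASCs, whereas the median of all genes was 0.01 and -0.01. The first and second comparisons share the SASCs samples.

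The samples of EASCs and SASCs did not overlap for 8 of the 9 genes (72.1% of all genes), those of PASCs and SASCs for 9 of 9 (71.6%), and those of EASCs and PASCs for 7 of 9 (41.2%). Not overlapping was therefore frequent over the whole table for the comparisons with SASCs. Tbx4 and Pitx1 passed the filter on low counts through the SASCs samples alone, so a call against SASCs was built into their passing. Without them, 5 of 7 genes were downregulated in EASCs and 4 of 7 in PASCs against SASCs, and the medians of the log2 fold change were -2.005 and -1.91. Irx3 and Irx5 had 0 and 1 EASCs samples above the filter level, so their low values in EASCs rest on few reads.

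**Figure D1:**
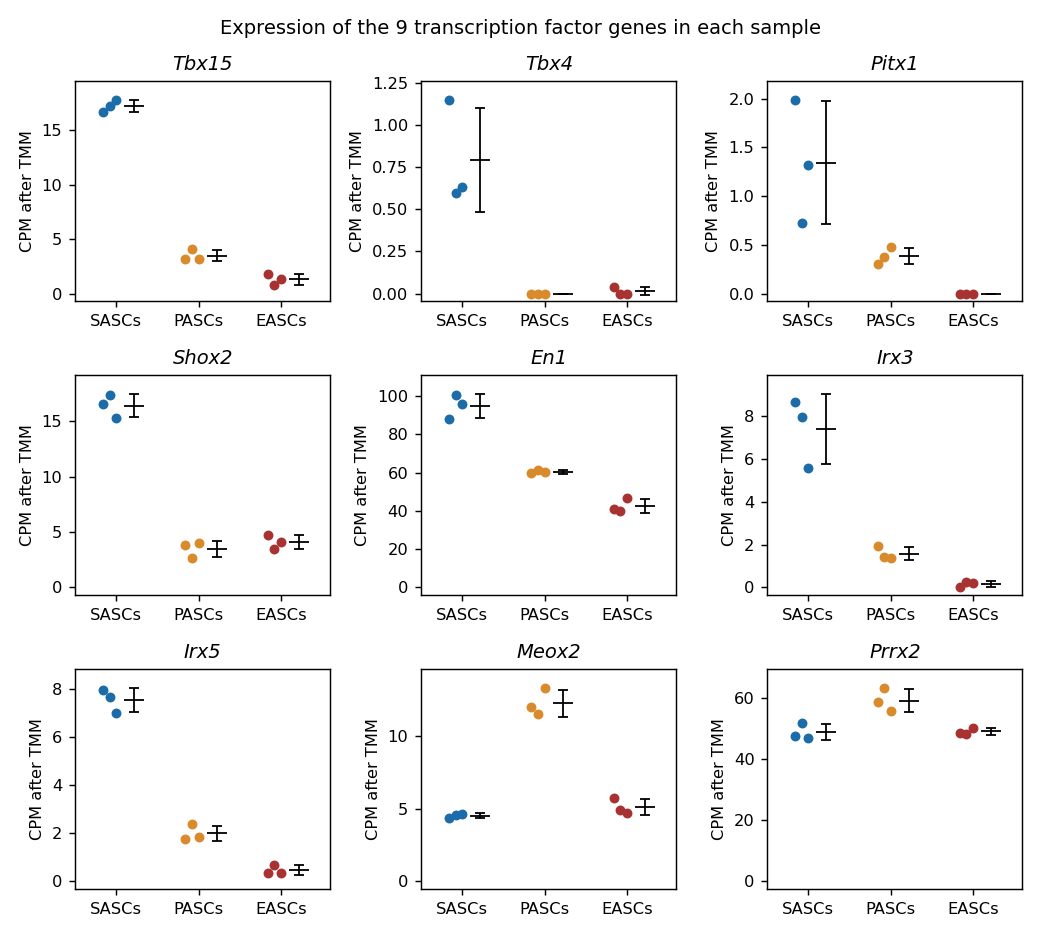
Expression of each gene in CPM after TMM scaling (y axis, linear, its range differs between panels) in the 3 samples of SASCs, PASCs and EASCs (points), with the mean and SD (bars). Tbx15, Tbx4, Pitx1, Shox2, En1, Irx3 and Irx5 are highest in SASCs, Meox2 is highest in PASCs, and Prrx2 differs little between the groups.

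Tbx15, which is needed for the scapula and other skeletal elements and for the dorsoventral pattern of the skin, was at 16.7, 17.2 and 17.7 CPM in SASCs, at 3.18, 4.07 and 3.18 CPM in PASCs, and at 1.80, 0.811 and 1.34 CPM in EASCs. The 3 groups did not overlap, and the order was SASCs, PASCs, EASCs. Tbx15 was downregulated in EASCs against SASCs by 3.70 on the log2 scale, a 13.03-fold lower level (SE 0.182, edgeR adjusted p = 2.82e-16). For PASCs, the log2 fold change from SASCs was -2.29 (SE 0.156, edgeR adjusted p = 4.10e-13). EASCs were also lower than PASCs, by 2.66-fold (log2 fold change -1.41, SE 0.212, edgeR adjusted p = 6.57e-06). In the table Tbx15 spans chr2:201289047-201390752 on the plus strand (rn6), and the gene LOC102553016 inside this span had 6 counts over the 9 samples.

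Tbx4 and Pitx1, the pair that marks the hindlimb, were the least abundant of the 9 genes in SASCs. Tbx4 had 33, 14 and 13 counts in the SASCs samples, 0 counts in each PASCs sample, and 1, 0 and 0 counts in EASCs. Only SASCs thus held more than a single read, at 0.792 ± 0.308 CPM (SD, n = 3). Against the floor of 3 counts over the group, Tbx4 was at least 19.7-fold lower in PASCs than in SASCs (edgeR adjusted p = 3.89e-06). The ratio of SASCs to EASCs was 58.4, with a 95% counting interval of 10.1 to 2346 (edgeR adjusted p = 1.15e-05). At this depth no fold between EASCs and PASCs can be given for Tbx4.

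Pitx1 had 57, 17 and 27 counts in SASCs, 8, 10 and 9 counts in PASCs, and 0 counts in each EASCs sample. The mean level was 1.34 ± 0.630 CPM (SD, n = 3) for SASCs and 0.385 ± 0.0859 CPM for PASCs, without overlap between the groups. Pitx1 was downregulated 3.54-fold in PASCs against SASCs (log2 fold change -1.82, SE 0.475, edgeR adjusted p = 0.00152). In EASCs it was at least 32.8-fold lower than in SASCs (edgeR adjusted p = 1.27e-07) and at least 8.89-fold lower than in PASCs (edgeR adjusted p = 4.39e-04). With only EASCs and PASCs in the fit, Pitx1 did not pass the filter and was not tested, and 4 of the 9 genes were called. Tbx4 lies at chr10:73333021-73362783 and Pitx1 at chr17:8873184-8884428, both on the plus strand (rn6), and no other gene of the table overlapped either.

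Shox2 was highest in SASCs and overlapped between the visceral depots. This short stature homeobox gene was at 16.5, 17.4 and 15.3 CPM in SASCs, at 3.79, 2.69 and 4.02 CPM in PASCs, and at 4.73, 3.49 and 4.07 CPM in EASCs. Each SASCs sample was above all PASCs and EASCs samples. Shox2 was downregulated 4.74-fold in PASCs (log2 fold change -2.24, SE 0.148, edgeR adjusted p = 1.96e-13) and 4.01-fold in EASCs (SE 0.144 on the log2 scale, edgeR adjusted p = 1.30e-12). The log2 fold change of EASCs against PASCs was 0.24, with a 95% interval of -0.10 to 0.58 (edgeR adjusted p = 0.309). Shox2 lies at chr2:164118175-164126783 on the minus strand (rn6).

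En1, the engrailed homeobox gene, had the highest level per length of the 9 genes in SASCs. Its levels were 88.2, 100.5 and 96.0 CPM in SASCs, 59.6, 61.6 and 60.2 CPM in PASCs, and 41.1, 40.0 and 46.8 CPM in EASCs. The groups did not overlap. En1 was 2.23-fold lower in EASCs than in SASCs (log2 fold change -1.15, SE 0.0665, edgeR adjusted p = 9.96e-15). In PASCs it was 1.57-fold lower than in SASCs (edgeR adjusted p = 1.10e-09) and EASCs were 1.42-fold lower than PASCs (edgeR adjusted p = 1.00e-06), both under the fold threshold of a DEG. En1 lies at chr13:36532758-36537888 on the plus strand (rn6).

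Irx3 and Irx5, iroquois homeobox genes that act in early limb bud patterning and lie in the same cluster, were lower in PASCs than in SASCs and lower again in EASCs. Irx3 was at 8.66, 7.98 and 5.56 CPM in SASCs and at 1.91, 1.42 and 1.38 CPM in PASCs, with 0, 6 and 5 counts in the EASCs samples (0.156 ± 0.135 CPM, SD, n = 3). It was downregulated 46.4-fold in EASCs (log2 fold change -5.54, SE 0.369, edgeR adjusted p = 2.54e-13) and 4.69-fold in PASCs (log2 fold change -2.23, SE 0.251, edgeR adjusted p = 1.08e-08) against SASCs. EASCs were 9.89-fold lower than PASCs (log2 fold change -3.31, SE 0.451, edgeR adjusted p = 1.39e-06). Of the 14770 genes, 89 had a lower log2 fold change than Irx3 in EASCs against SASCs. The gene LOC102554898 overlaps Irx3 on the opposite strand. It had 83 counts in all, 77 of them in SASCs, and because no source states whether counting used strand, reads of this pair may not be told apart.

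Irx5, named by the symbol of its row, had the same order. It was at 7.96, 7.64 and 6.98 CPM in SASCs, at 1.76, 2.36 and 1.85 CPM in PASCs, and had 8, 17 and 8 counts in EASCs (0.461 ± 0.198 CPM, SD, n = 3). The groups did not overlap. Irx5 was downregulated 16.1-fold in EASCs (log2 fold change -4.01, SE 0.256, edgeR adjusted p = 9.94e-14) and 3.76-fold in PASCs (log2 fold change -1.91, SE 0.203, edgeR adjusted p = 3.57e-09). EASCs were 4.27-fold lower than PASCs (log2 fold change -2.09, SE 0.295, edgeR adjusted p = 2.35e-06). Summed over the samples, SASCs held 551 counts of Irx3 and 552 of Irx5, PASCs held 114 and 144, and EASCs held 11 and 33. Irx3 lies at chr19:15838714-15842135 on the minus strand and Irx5 at chr19:16415850-16420614 on the plus strand (rn6), 573.7 kb apart. The row named Irx5 has this position beside Irx3, but its description and gene ID are those of Irx2, which has a row of its own with other counts. In GRCr8 the Irx3 promoter was on the plus strand, as the Irx5 row was here, whereas the Irx3 row was on the minus strand. Whether the builds differ or the rows are swapped was not tested. The values of Irx3 and Irx5 are therefore given by row name only.

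Meox2 had another pattern. This homeobox gene of somites and limb muscle precursors was at 4.35, 4.58 and 4.64 CPM in SASCs, at 12.0, 11.5 and 13.3 CPM in PASCs, and at 5.78, 4.90 and 4.70 CPM in EASCs. Each PASCs sample was above every other sample. Meox2 was upregulated 2.71-fold in PASCs against SASCs (log2 fold change 1.44, SE 0.134, edgeR adjusted p = 2.56e-10) and was 2.39-fold lower in EASCs than in PASCs (log2 fold change -1.26, SE 0.132, edgeR adjusted p = 1.50e-08). EASCs and SASCs differed by 0.18 on the log2 scale, with a 95% interval of -0.11 to 0.48 (edgeR adjusted p = 0.259). The markers of skeletal muscle and myoblasts summed to under 1 CPM in each sample, and Myog, Myf5 and Pax7 were at 0 counts in all 9. Myod1, of the same list, had 20 counts in SASCs, 28 in PASCs and 0 in EASCs. Meox2 lies at chr6:56625768-56689195 on the plus strand (rn6).

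Prrx2, a paired-related homeobox gene of limb mesenchyme, had nearly level expression. It was at 47.6, 51.7 and 46.8 CPM in SASCs, at 58.5, 63.1 and 55.5 CPM in PASCs, and at 48.5, 48.2 and 50.1 CPM in EASCs. PASCs stood above the other groups, which overlapped. The log2 fold change was 0.28 for PASCs against SASCs (SE 0.0651, edgeR adjusted p = 4.58e-04) and -0.27 for EASCs against PASCs (SE 0.0651, edgeR adjusted p = 0.00182), under the fold threshold. For EASCs against SASCs it was 0.01, with a 95% interval of -0.13 to 0.14 (edgeR adjusted p = 0.929). Without TMM these values were -0.052 for PASCs against SASCs (edgeR adjusted p = 0.800), -0.34 for EASCs against PASCs (0.168) and -0.39 for EASCs against SASCs (0.0285). Prrx2 lies at chr3:9681871-9718051 on the plus strand (rn6), and Fibcd1, which overlaps it, had 8 counts in all.

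**Figure D2:**
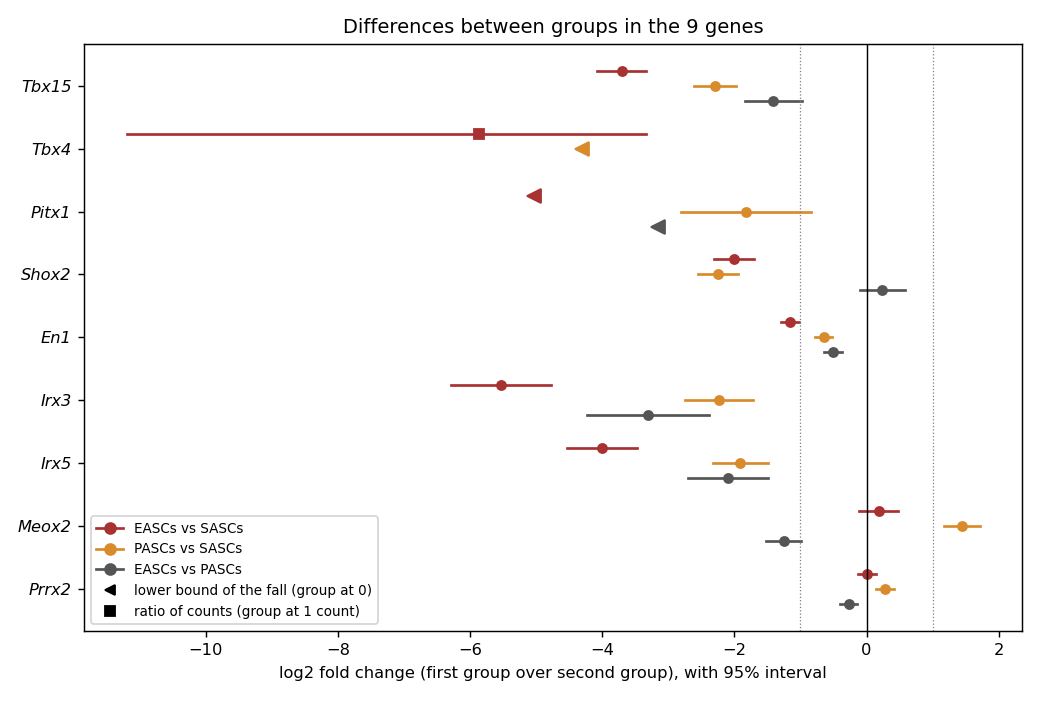
Log2 fold change of each gene (x axis, first group over second) with its 95% interval for the 3 comparisons; triangles are lower bounds of a fall where a group had 0 counts, the square is a ratio of counts with its counting interval, and dotted lines mark a fold change of 2. Tbx15, Pitx1, En1, Irx3 and Irx5 lie left of 0 in each comparison, Shox2 only in the comparisons with SASCs, and Meox2 lies to the right for PASCs against SASCs.

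The order of the genes within a depot was compared on CPM per kb of transcript length. In SASCs the mean level was 46.7 CPM per kb for En1, 39.6 for Prrx2, 10.5 for Shox2, 4.69 for Irx5, 2.83 for Irx3, 2.01 for Meox2, 1.98 for Tbx15, 0.584 for Pitx1 and 0.113 for Tbx4. Only Meox2 and Tbx15 overlapped between neighbours in this order. In PASCs Prrx2 (48.0 CPM per kb) stood above En1 (29.7), and Meox2 took the third place with 5.47 CPM per kb. In EASCs Prrx2 (39.8) and En1 (21.0) again led, while Shox2 (2.61) and Meox2 (2.28) overlapped, and so did Irx3 (0.0596) and Tbx4 (0.0020).

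Among 24 relatives from the same gene families, 12 passed the filter on low counts. Of these, 6 were downregulated and 0 upregulated in EASCs against SASCs (median log2 fold change -0.95), and 7 were downregulated and 1 upregulated in PASCs against SASCs (median -1.24). Tbx5, Irx1, Tbx6, Meox1 and 1 other relative passed the filter through 1 group alone, the named ones through SASCs, so that their lower values elsewhere were built into their passing. Without these 5, 2 of 7 were downregulated in EASCs (median -0.61) and 3 of 7 in PASCs (median -0.78), and 0 were upregulated. Tbx5, the forelimb counterpart of Tbx4, was at 3.63 ± 0.267 CPM in SASCs (SD, n = 3) but had 1 count in PASCs and 5 in EASCs. The ratio of SASCs to PASCs was 259 with a counting interval of 46.1 to 10279 (edgeR adjusted p = 4.39e-11), and the log2 fold change in EASCs was -5.58 (edgeR adjusted p = 2.02e-10). Irx1, of the other iroquois cluster, was at 7.52 ± 0.550 CPM in SASCs, 0 counts in PASCs (at least 178-fold lower, edgeR adjusted p = 1.96e-14) and 4 counts in EASCs (log2 fold change -6.93, edgeR adjusted p = 5.36e-14). Irx2 fell as well, with 12.8 CPM in SASCs against 1.06 CPM in PASCs and 1.00 CPM in EASCs. Between EASCs and PASCs, Irx2 had a log2 fold change of -0.0185 (edgeR adjusted p = 0.975). Tbx5 and Irx1 had too few counts in both visceral depots for such a comparison (edgeR adjusted p = 0.272 and 0.0881).

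Other relatives moved in other ways. Meox1, the paralogue of Meox2, was lowest in PASCs, where Meox2 was highest, at 1.38 CPM in SASCs, 0.0759 in PASCs and 0.448 in EASCs, with log2 fold changes of -3.96 for PASCs against SASCs (edgeR adjusted p = 1.77e-06) and 2.37 for EASCs against PASCs (edgeR adjusted p = 0.00988). Prrx1 was highest in SASCs, with 404 ± 29.3, 326 ± 9.27 and 233 ± 10.9 CPM in SASCs, PASCs and EASCs. Its differences were under 2-fold (log2 fold changes -0.79 for EASCs and -0.31 for PASCs). Per length, Prrx1 exceeded Prrx2 4.68 ± 0.543 times in SASCs, 3.12 ± 0.263 times in PASCs and 2.68 ± 0.164 times in EASCs (SD, n = 3). Between EASCs and PASCs, 2 relatives were upregulated (Tbx2 and Meox1) and 1 was downregulated.

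A list of 28 other limb transcription factors, 16 of them tested, did not share one direction. In EASCs against SASCs 5 were upregulated and 6 downregulated, and in PASCs against SASCs 5 were upregulated and 4 downregulated, while 4 moved in each direction between EASCs and PASCs. The medians of the log2 fold change against SASCs were -0.57 and -0.13, or -0.70 and -0.26 when the gene with 0 counts in both groups (Pax3 for EASCs, Alx1 for PASCs) was left out. Lmx1b and 5 other genes of this list passed the filter through 1 group alone, and without them 3 rose and 3 fell in EASCs, and 3 rose and 1 fell in PASCs, against SASCs. Lmx1b, which specifies the dorsal limb, was at 2.00 CPM in SASCs, at least 46.3-fold lower in PASCs with 0 counts, and lower by 3.91 on the log2 scale in EASCs (edgeR adjusted p = 5.78e-09 and 3.41e-07). Dlx5 was upregulated, with 0.0656, 2.26 and 5.14 CPM in SASCs, PASCs and EASCs (log2 fold changes 4.93 and 6.12), and so was Scx, a gene of tendon progenitors (0.205, 7.26 and 3.47 CPM, log2 fold changes 5.02 and 3.96). Alx1 was found in EASCs only, with 280 counts (at least 95.8-fold higher than SASCs), and Pax3 in PASCs only, with 80 counts (at least 27.1-fold higher than SASCs).

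Of 22 limb signals and receptors, 16 were tested. In EASCs 3 were upregulated and 5 downregulated against SASCs, and in PASCs 1 was upregulated and 6 downregulated. Against PASCs, EASCs had 4 upregulated and 2 downregulated. Fgf10, the mesenchymal ligand that starts limb outgrowth, was downregulated in both visceral depots, with a level of 49.8 ± 1.08 CPM in SASCs against 7.69 ± 0.377 CPM in PASCs and 11.3 ± 0.412 CPM in EASCs (log2 fold changes -2.70 and -2.14, edgeR adjusted p = 2.04e-20 and 1.19e-18). Gdf5, a joint morphogen that passed the filter through SASCs alone, also fell (log2 fold changes -2.91 and -2.18), whereas Bmp4 rose (2.89 and 3.62). Aldh1a2, which makes retinoic acid, had a log2 fold change of -2.58 for PASCs against SASCs and of 2.99 for EASCs against PASCs.

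Transcription factors of visceral mesenchyme and mesothelium were compared in the same way. Of 11 in this list 9 were tested, and 5 were upregulated and 0 downregulated in EASCs, and 4 and 0 in PASCs, against SASCs (median log2 fold changes 1.93 and 0.98). Without Gata4 and Bnc1, which passed the filter through EASCs alone, these were 3 of 7 and 2 of 7 (medians 0.73 and 0.75). Wt1, which is also among the mesothelial markers, rose in both, with 1.91 CPM in SASCs against 36.0 CPM in PASCs and 53.7 CPM in EASCs (log2 fold changes 4.23 and 4.81). Tbx18 and Nr2f2, chosen after their values were seen, were not called, with log2 fold changes of -0.56 and -0.10 in EASCs and -0.67 and -0.63 in PASCs. Tcf21 had 0 counts in SASCs and was at least 35.5-fold higher in PASCs and at least 178-fold higher in EASCs. Between EASCs and PASCs 2 of the 9 were upregulated and 0 downregulated, or 1 and 0 of 7 without Gata4 and Bnc1.

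**Figure D3:**
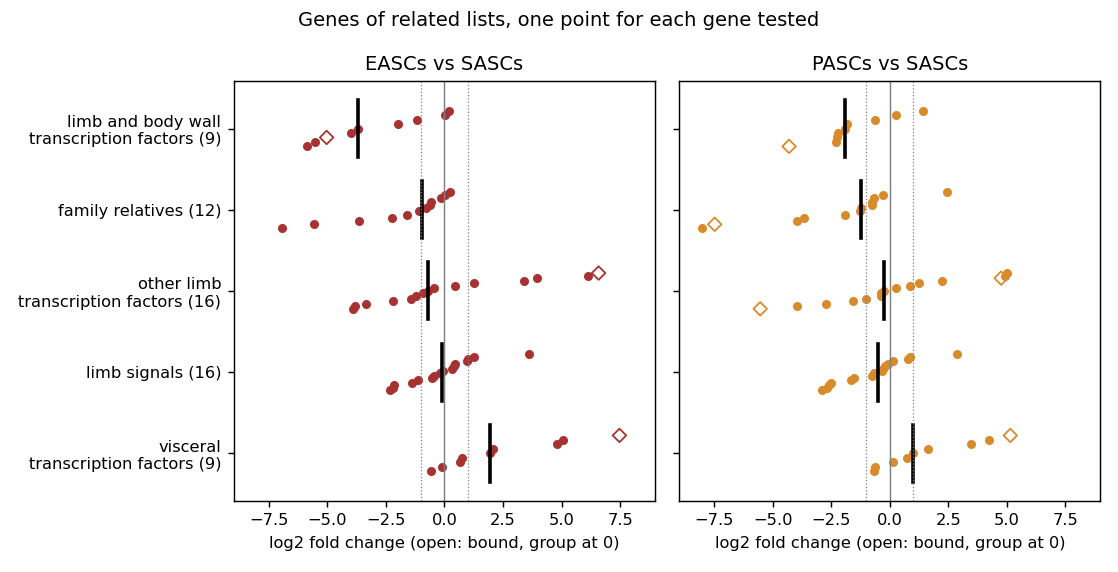
Log2 fold change against SASCs (x axis) of each gene tested in the 9 limb and body wall factors and 4 related lists, for EASCs (left) and PASCs (right); open diamonds are bounds of genes with a group at 0 counts, black bars are medians, and Alx1 in PASCs and Pax3 in EASCs, with no counts in either group, are left out. The medians of the 9 factors lie at -3.70 and -1.91 (-2.005 and -1.91 without Tbx4 and Pitx1), and those of the visceral factors at 1.93 and 0.98 (0.73 and 0.75 without Gata4 and Bnc1).

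Markers of other cell types moved with the depots. The 7 mesothelial markers summed to 17.7 to 19.1 CPM for SASCs, 91.6 to 98.3 CPM for PASCs and 124 to 136 CPM for EASCs, of which Muc16 was at 0 in SASCs and Krt19 at 0 in PASCs. The 5 adipocyte markers summed to 87.1 to 95.9, 19.1 to 20.2 and 9.24 to 10.1 CPM in the same order. For the 5 endothelial markers the sums were 49.6 to 51.2, 5.77 to 7.12 and 27.8 to 29.5 CPM, and for the 6 leukocyte markers with a row 16.7 to 20.5, 33.4 to 36.4 and 60.3 to 64.8 CPM, with Cd3e at 0 throughout. The 5 Schwann cell and melanocyte markers summed to 30.0 to 33.9, 7.54 to 9.05 and 1.84 to 2.06 CPM, with Dct at 0 in all groups. Testis, adrenal and kidney markers, 8 in all, summed to 2.39 to 2.71, 34.2 to 36.0 and 165 to 176 CPM, nearly all of it Star, and Umod was at 0. Epithelial markers stayed under 5 CPM in sum, with Krt14 and Krt18 at 0 in SASCs, Krt5 at 0 in PASCs, and Krt5 and Cdh1 at 0 in EASCs. The part of these cells in the differences of the 9 genes was not tested.

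The nearest tested genes on either side were compared with each of the 9 genes. Among these 18 neighbours, 1 was upregulated and 4 downregulated in EASCs against SASCs, and 1 and 6 in PASCs against SASCs. These include Irx5, as the neighbour of Irx3, and LOC102554898, which overlaps Irx3. Without this pair, 2 of 16 were downregulated in EASCs and 4 of 16 in PASCs, where 14.2% and 14.9% of all genes were. Wars2, 32.9 kb from Tbx15, was at 9.48, 9.13 and 8.22 CPM in SASCs, PASCs and EASCs and was not a DEG in any comparison, and neither was Fto, 313.7 kb from Irx5, at 70.0, 65.9 and 63.8 CPM. Mmp2, the gelatinase gene 268.1 kb from Irx3, fell as well, with 4337, 830.0 and 566.8 CPM in SASCs, PASCs and EASCs (log2 fold changes -2.39 and -2.94, edgeR adjusted p = 5.18e-23 and 7.08e-25). Steap3, 258.6 kb from En1, was at 138, 86.9 and 29.3 CPM (log2 fold change -2.23 for EASCs). Rsrc1, 0.1 kb from Shox2, was lower by under 2-fold (log2 fold changes -0.88 for PASCs and -0.70 for EASCs). Tbx2, 43.1 kb from Tbx4, was at 3.96, 1.67 and 4.08 CPM and was downregulated in PASCs (log2 fold change -1.23, edgeR adjusted p = 6.61e-05), whereas for EASCs against SASCs its log2 fold change was 0.04 (edgeR adjusted p = 0.885).

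**Figure D4:**
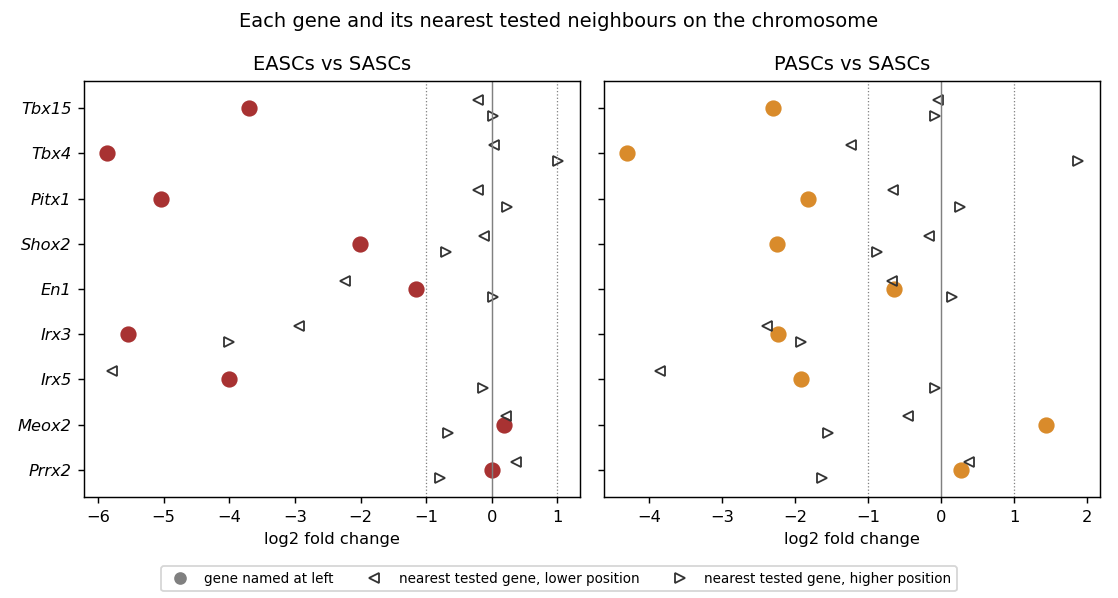
Log2 fold change against SASCs (x axis) of each of the 9 genes (filled circles) and of the nearest tested gene at the lower and the higher position on its chromosome (open triangles), for EASCs (left) and PASCs (right); Tbx4 and Pitx1 are drawn at their bounds or ratio of counts where a group had 0 or 1 count. The neighbours of Irx3, of which one is Irx5 and the other Mmp2, lie to the left with it, and those of Tbx15 lie near 0.

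The genes whose levels ran most like each member were ranked by Pearson's r of log2(CPM + 1) over the 9 samples, among 12774 genes with a mean of at least 1 CPM. Because the points are 3 groups from the same libraries, high values are frequent: 620 genes exceeded 0.95 with Tbx15, 1073 with Shox2, 473 with Irx5, 430 with Tbx4, 378 with Irx3 and 345 with En1. Only 64 did with Meox2, 35 with Pitx1 and 2 with Prrx2. The closest were Ptgfr, the prostaglandin F receptor, for Tbx15 (r = 0.998), Vrk3 for Tbx4 (0.992), Car14 for Pitx1 (0.990), Cish for Shox2 (0.996), Hdac7 for En1 (0.995), Cfd, which encodes adipsin, for Irx3 (0.995), Fam63b for Irx5 (0.997), Trim7 for Meox2 (0.993) and LOC100362333 for Prrx2 (0.963). The next in each ranking were RGD1310819 and Mat2b for Tbx15, Mat2a and Hoxb9 for Tbx4, Ctns and the adipocyte marker Cidec for Pitx1, Apcdd1 and Tmem38b for Shox2, and Plekha6 and Clec2dl1 for En1. For the remaining genes they were Usp42 and Nbl1 (Irx3), Akr1c14 and Pc (Irx5), Nrd1 and Sgcd (Meox2), and Wdr82 and Akr1b8 (Prrx2).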

How the data were processed

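RNA of 9 cultured samples was sequenced by the authors, who deposited a table of raw read counts per gene. The submitters' processing notes name TopHat2 and the rn5 build, whereas the methods give rn6. The gene positions fit rn6, and no genome was used here. Samples were grouped by the depot in their labels. Counts were scaled by TMM (factors 0.740 to 1.23), filtered with filterByExpr and fitted with edgeR 4.0.16 (R 4.3.3) over all 9 samples without a block, with Benjamini-Hochberg adjustment over 14770 genes. SE is the absolute log2 fold change over the square root of F. Tested on simulated data for EASCs against SASCs with 14770 genes, 194 of 200 changed genes were recovered and 4 unchanged genes were called. A value of 0 was bounded at 3 counts over the group, and intervals and floors cover counting error only. The 9 genes, the related lists and the markers were chosen with earlier results of these data known. Of each list, at most 4 DEGs with the largest fold change in a comparison were eligible to be named, plus Prrx1 and Tbx5, and Tbx18 and Nr2f2 were named after their values were seen. Of the other genes, the 3 most correlated ones and the nearest neighbours were named. Replicates of a group differed beyond counting noise (chi-square per degree of freedom 6.06 to 274), and none was a duplicate. Alternatives were DESeq2 1.42.0, limma voom 3.58.1, other filters, no TMM, upper quartile scaling, removal of rRNA genes, fits of the 2 groups compared, a replicate block, calls at any fold change and leaving out each replicate. Promoters came from RefSeq GRCr8, matched by symbol, and 8 of 9 gene IDs matched their symbol. Whether the deposited counts used strand is not given in the sources used here. Values of 2 genes of these lists are not reported here.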

Additional observations from a re-analysis of the deposited data

Results flagged for a closer look

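For 5 genes the effect in EASCs against SASCs differed by over 2-fold from that in PASCs against SASCs, as tested by EASCs against PASCs in edgeR. The difference in log2 fold change was -1.41 for Tbx15, -3.31 for Irx3, -2.09 for Irx5 and -1.26 for Meox2. For Pitx1, with 0 counts in EASCs, it was at most -3.15, from the floor of 3 counts. The first 4 had edgeR adjusted p-values of 6.57e-06, 1.39e-06, 2.35e-06 and 1.50e-08, and Pitx1 had 4.39e-04. For each of these genes the 3 EASCs samples were below the 3 PASCs samples. Pitx1 was not tested when only EASCs and PASCs were fitted. En1 and Prrx2 also differed, by less than 2-fold (log2 fold changes -0.50 and -0.27, edgeR adjusted p = 1.00e-06 and 0.00182).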

How the results depend on the processing

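Of 462 values of the 9 genes under the alternatives, 455 kept their direction and their side of the threshold. The 7 that turned sign were not DEGs. Without TMM, Meox2 was at -0.21 in EASCs against SASCs, and Prrx2 at -0.39 (EASCs) and -0.052 (PASCs), while the median of all genes moved to -0.39 and -0.33. Prrx2 in EASCs was at -0.011 with DESeq2 and between -0.020 and 0.051 when 1 replicate was left out. The number of the 9 genes called remained at 7, 7 and 5 with each replicate left out, and was 5, 5 and 4 with at least 1 CPM in 3 samples, since Tbx4 and Pitx1 were then not tested. With only the groups compared in the fit, it was 4 for EASCs against PASCs, again without Tbx4 and Pitx1. Over all genes, 4105, 3979 and 1091 DEGs became 10298, 10227 and 4530 at any fold change. Deviations of same-numbered samples correlated at -0.0301 to 0.0712, so no pairing by number was seen. Such values cannot exclude a shared origin of the samples. With the replicate block there were 4061, 3944 and 1067 DEGs. Depth limits Tbx4, Pitx1 and the EASCs values of Irx3 and Irx5.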
